A study of Mus musculus with 55 samples.

Results

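Acetylation of histone H3 at lysine 27 (H3K27ac) was compared between bone marrow-derived macrophages of C57BL/6 mice given lipopolysaccharide (LPS) and those given the vehicle PBS. The libraries were chosen by their titles, as the 2 titled LPS at 2 h and the 2 vehicle libraries titled PBS at 2 h or, for replicate 2, PBS2, which makes 4 of the 55 samples of the series. Chromatin immunoprecipitation sequencing (ChIP-seq) gave the number of sequenced tags in a 1000 bp window around each of 97113 open chromatin regions, and for each of 18490 genes in the sum over regions that carry its name within 100 kb of its start. The cells had been grown from marrow in medium with M-CSF, replated and serum-starved overnight, and LPS was used at 10 ng/ml. All groups share this preparation, and the labels give no genetic change for any. The treatment label of LPS replicate 1 reads 1 h while its title reads 2 h, and the title was followed. Nothing in the labels says that replicates came from separate animals or cultures, so variation between them may be technical. The p-values measure such variation pooled over 15 H3K27ac libraries of 8 groups, these 4 among them.

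LPS, a component of the outer membrane of Gram-negative bacteria, is sensed by the receptor TLR4, whose signal releases the transcription factor NF-kB into the nucleus, activates AP-1 through MAP kinases and leads to interferon secretion. H3K27ac is placed by the acetyltransferases p300 and CBP on the nucleosomes that flank active promoters and enhancers, and is lost where histone deacetylases and co-repressors act. In macrophages the factors PU.1, C/EBP, AP-1, MEF2 and the MAF and MiT/TFE families mark enhancers of the resting state, and NF-kB, IRF and STAT factors bind further enhancers after a stimulus. ChIP-seq measures a population, so fewer cells carrying the mark and less mark per cell cannot be told apart.

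The 4 libraries held 8673104 (PBS replicate 2) to 16842791 (LPS replicate 1) tags. Of these, 54.6% (PBS replicate 1), 79.1% (PBS replicate 2), 61.8% (LPS replicate 1) and 72.4% (LPS replicate 2) fell in the windows, so this share rose with LPS in the pair of replicate 1 and fell in that of replicate 2, and values were rescaled to the tags in windows. The 2 input libraries had 8.65% and 8.80% of tags there. All 10 macrophage markers had tags in every library, with a summed level of 13406 to 19417 normalised tags with PBS and 15183 to 19161 with LPS, and 1 of these was higher after LPS (Spi1) and 2 were lower (Cd68 among them), with a median log2 change of -0.36; none of the 3 calls held without the block. Summed levels of markers of other cells were 206 to 391.97 for 10 neutrophil genes, 114 to 369 for 4 T cell genes, 610.4 to 1631 for 3 B cell genes, 273 to 359 for 5 fibroblast genes, 51.9 to 100.2 for 3 erythroid genes and 1397 to 2128 for 5 dendritic cell genes. Of the listed markers Cxcr2 (neutrophils) and Col3a1 (fibroblasts) were at 0 tags in at least 1 library. Listed markers with no window included Cd3e, Cd3g and Lck of T cells, Cd79a and Pax5 of B cells, Dcn and Lum of fibroblasts, and Epor, Hba-a1, Hba-a2 and Hbb-bs of erythroid cells.

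The central 200 bp of 6 regions are shown because they are among the regions of largest change and hold letters of the motifs compared further on. The first 4 gained H3K27ac and the last 2 lost it. Sequences are the plus strand of mm10 (RefSeq GRCm38.p6), with matches to 6 of the motifs (NF-kB, AP-1, ISRE, PU.1, MARE and C/EBP) in capitals and matches to the others not marked. The first is intron 3 of Ube2z, a ubiquitin-conjugating enzyme, at chr11:96058389-96058588, with 1 NF-kB match. The second lies between genes at chr16:84603860-84604059, 110.2 kb upstream of the miR-155 hairpin, with 1 NF-kB match. The third lies between genes at chr6:66849005-66849204, 43.8 kb from the vomeronasal receptor gene Vmn1r39, with 2 NF-kB matches. The fourth is intron 6 of Ppm1h, a phosphatase gene, at chr10:122891682-122891881, named for Mirlet7i 93.9 kb away, with an AP-1 and an interferon-response (ISRE) match. The fifth is intron 7 of Slco2b1, an organic anion transporter gene, at chr7:99674915-99675114, with 1 PU.1 and 2 MAF-type (MARE) matches, and 1 RUNX and 1 KLF match left in lower case. The sixth is intron 4 of Vsig4, a complement receptor of resting macrophages, at chrX:96256653-96256852, 13.8 kb past the miR-223 hairpin, with PU.1, ISRE and C/EBP matches.
Ube2z intron: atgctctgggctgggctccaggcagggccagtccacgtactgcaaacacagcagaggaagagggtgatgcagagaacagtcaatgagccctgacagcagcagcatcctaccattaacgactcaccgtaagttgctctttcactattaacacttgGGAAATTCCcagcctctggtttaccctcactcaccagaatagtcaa
miR-155 upstream: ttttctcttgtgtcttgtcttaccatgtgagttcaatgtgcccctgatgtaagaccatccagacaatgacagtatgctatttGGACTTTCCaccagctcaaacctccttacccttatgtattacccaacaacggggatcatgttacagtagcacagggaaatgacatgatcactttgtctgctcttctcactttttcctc
Vmn1r39 upstream: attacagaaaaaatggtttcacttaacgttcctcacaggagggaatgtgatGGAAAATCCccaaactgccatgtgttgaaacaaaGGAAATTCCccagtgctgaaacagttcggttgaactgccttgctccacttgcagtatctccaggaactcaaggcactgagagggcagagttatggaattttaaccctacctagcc
Ppm1h intron (Mirlet7i): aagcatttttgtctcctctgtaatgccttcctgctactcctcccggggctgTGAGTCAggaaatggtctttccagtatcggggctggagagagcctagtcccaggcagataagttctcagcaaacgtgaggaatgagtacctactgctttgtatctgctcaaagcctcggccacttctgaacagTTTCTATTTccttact
Slco2b1 intron: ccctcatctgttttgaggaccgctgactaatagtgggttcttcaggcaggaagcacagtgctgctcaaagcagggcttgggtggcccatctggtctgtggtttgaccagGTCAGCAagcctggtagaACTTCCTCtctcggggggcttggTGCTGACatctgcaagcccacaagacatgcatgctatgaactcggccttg
Vsig4 intron (Mir223): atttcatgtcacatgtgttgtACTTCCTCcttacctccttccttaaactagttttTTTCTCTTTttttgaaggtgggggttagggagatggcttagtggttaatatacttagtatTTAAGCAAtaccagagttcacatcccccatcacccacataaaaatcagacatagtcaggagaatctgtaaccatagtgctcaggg

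Mature microRNAs of 8 loci whose H3K27ac changed, and of Mir221 for its shared seed although its regions did not pass, are shown with the seed, bases 2 to 8, in capitals, since the seed sets which messengers a microRNA can pair with. RefSeq gave mature sequences for 21 of the 28 listed microRNA genes. The 5′ arms of miR-146a and miR-146b share the seed GAGAACU, and the 3′ arms of miR-221 and miR-222 share GCUACAU.
miR-155-5p: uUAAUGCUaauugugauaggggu
miR-146a-5p: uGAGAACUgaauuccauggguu
miR-146b-5p: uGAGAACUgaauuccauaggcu
miR-147-5p: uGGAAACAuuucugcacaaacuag
miR-21a-5p: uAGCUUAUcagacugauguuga
miR-221-3p: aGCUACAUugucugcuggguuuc
miR-222-3p: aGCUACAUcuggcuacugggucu
miR-99b-5p: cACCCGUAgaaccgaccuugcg
miR-223-3p: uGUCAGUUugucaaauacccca

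Within 2 h, gains and losses of H3K27ac were about equally frequent under the scaling used here. Of 77387 regions with enough tags to test, 9121 (11.8%) were higher after LPS and 8692 (11.2%) were lower (limma with replicate number as a block, Benjamini-Hochberg adjusted p under 0.05, n = 2 per group). The median log2 change was 1.68 among the higher and -1.43 among the lower regions, against 0.01 over all regions tested. The 2 LPS libraries lay above both PBS libraries in 94.2% of higher regions and below both in 88.3% of lower regions. These shares follow in part from the calls, which were made on the same libraries, and the share over all regions was not counted. Of 16710 genes tested, sums of 2158 (12.9%) were higher and of 1743 (10.4%) were lower, with medians of 1.11 and -1.08 against 0.09 over all genes. The balance depends on the scaling. With the authors' scaling to total mapped tags, 7832 regions were higher and 9231 lower, and 1688 genes higher and 1858 lower. Scaled by total tags in tested regions, 7982 regions were higher and 10096 lower. Without the replicate block, which takes out differences shared by libraries of the same number, 2380 regions were higher and 1600 lower, and the gene counts were 582 (3.48%) and 380 (2.27%). All of these were also called with the block, in the same direction. Leaving out LPS replicate 1, the higher counts were 5346 regions and 1188 genes, and without PBS replicate 2 they were 6056 and 1337. The lower counts were 5428 regions and 1137 genes without LPS replicate 2, and 4097 and 885 without PBS replicate 2.

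**Figure D1:**
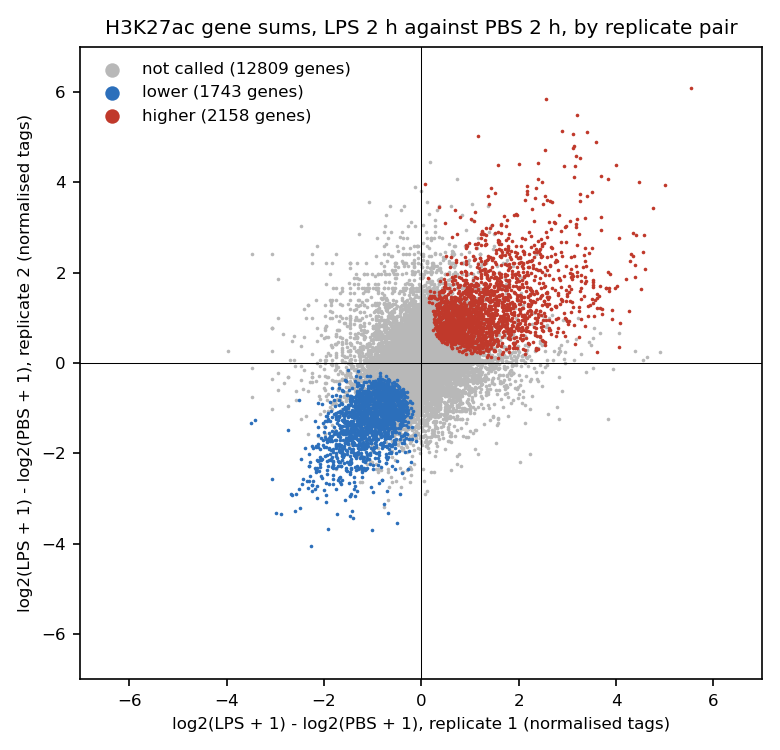
Change of each gene sum in the pair of replicate 1 (x axis) and of replicate 2 (y axis), as differences of log2(normalised tags + 1), with 1 point per gene for 16710 genes. The 2158 higher genes (red) and 1743 lower genes (blue) lie in the quadrants where both pairs move the same way, and the 12809 other genes (grey) surround the origin.

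The regions of largest rise outside the classic cytokine and interferon genes had next to no H3K27ac with PBS, which a ranking by log2 change favours. The window in Ube2z held 1 tag in each PBS library and 142 and 158 in the LPS libraries, a ratio of scaled tags of 108 with an exact 95% interval of 29.7 to 897 that covers counting error alone. The window upstream of miR-155 held 6 and 0 tags with PBS and 182 and 134 with LPS, and that near Vmn1r39 5 and 0 tags with PBS and 150 and 125 with LPS. In the other 5, in introns of Stx8, Itgb8 and Ppm1h and 7.31 and 2.83 kb before the starts of Has1 and Ehd1, PBS replicate 2 held no tag, PBS replicate 1 held 4 to 9 and the LPS libraries held 92 to 344. PBS replicate 2 was also the shallowest of the 4 libraries. Log2 changes of the 8 ran from 5.35 to 5.86, with adjusted p from 2.34e-06 to 0.000132 (limma, Benjamini-Hochberg), and none has a p300, LXR or SREBP peak of the deposited lists at its centre.

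The regions of largest fall started from high levels and kept a small part of them, which the ranking and its tag minimum favour. A window 37.5 kb from the start of Slc7a13, an amino acid transporter gene, had 368 and 763 normalised tags (tags rescaled as above, per 10000000 mapped) with PBS and 28.96 and 47.1 with LPS, where here and below the value of replicate 1 precedes that of replicate 2. The intron of Slco2b1 had 248 and 483 with PBS and 19.5 and 31.9 with LPS. The window past miR-223 had 128 and 176 with PBS and 10.8 and 13.8 with LPS. In all 3 the groups were apart, which the choice by largest fall favours, and both pairs moving alike was a condition of that choice. The other 5 lay in introns of Zfyve28, Atp6v0d2, Rnf150 (named for Tbc1d9) and Bnc2 (named for 6030471H07Rik), and in the 3′ UTR of Nisch, 15.2 kb before the start of the scavenger receptor gene Stab1. The 8 log2 changes ran from -3.81 to -3.52 (adjusted p from 2.18e-06 to 2.24e-05, limma). Of these 8, 6 had a p300 peak of the deposited list at the centre and 7 an LXR peak, the latter called in cells treated with the LXR agonist GW3965.

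Losses were less frequent at promoters than farther away, while gains took 10.5% to 12.95% of regions at every distance. Of 18914 regions up to 1 kb from a start site 12.95% were higher and 6.23% lower, whereas of 25869 regions at 10 to 50 kb 10.9% were higher and 12.9% lower, and beyond 100 kb the shares were 10.5% and 12.7%. At the 1329 promoter regions in CpG islands, 14.4% were higher and 3.54% lower. Among 7834 genes with a promoter and a distal region tested, a distal region was higher at 1870, of which 35.9% also had a higher promoter region. A distal region was lower at 1967, of which 24.2% had a lower promoter region, against 15.0% and 8.96% of all these genes with a higher or lower promoter region. Changes ran in stretches: where the next tested region was 1 to 10 kb away, it was higher in 49.2% and lower in 0.719% of cases beside a higher region, and lower in 48.1% and higher in 0.807% beside a lower one, against 13.03% and 13.3% beside any region. Windows of 1000 bp closer than that share tags and were left out of this count.

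Higher and lower regions differed in motif letters. Both strands of the central 200 bp were searched in regions over 1 kb from a start site, of which 6671 were higher and 7513 lower. The NF-kB letters GGANTTTCC were present in 6.91% of higher, 0.399% of lower and 1.92% of all distal regions tested; of the 1121 distal regions that hold them, 41.1% were higher and 2.68% lower. The ISRE letters AAANNGAAA stood in 16.9% of higher, 7.08% of lower and 10.7% of all, and the STAT letters TTCNNNGAA in 10.0%, 4.35% and 6.24%. The order was the opposite for PU.1 (GAGGAAGT; 9.40% of higher, 13.3% of lower, 11.8% of all), MARE (TGCTGAC; 5.32%, 8.65% and 5.89%) and the E-box CACGTG bound by MiT/TFE and other basic helix-loop-helix factors (2.34%, 4.46% and 3.18%). AP-1 (TGANTCA) stood in 24.5% of higher and 24.4% of lower regions, C/EBP (TTGCNNAA) in 14.02% and 13.4%, RUNX (TGTGGT) in 19.3% and 22.3% and MEF2 (CTAAAAATA) in 0.585% and 0.918%. Matches of different motifs can share bases, as those of MARE and AP-1 do, and a match shows letters, not binding. The share lower was 18.9% of distal regions with MARE and 18.0% with the E-box, against 8.46% with ISRE.

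**Figure D2:**
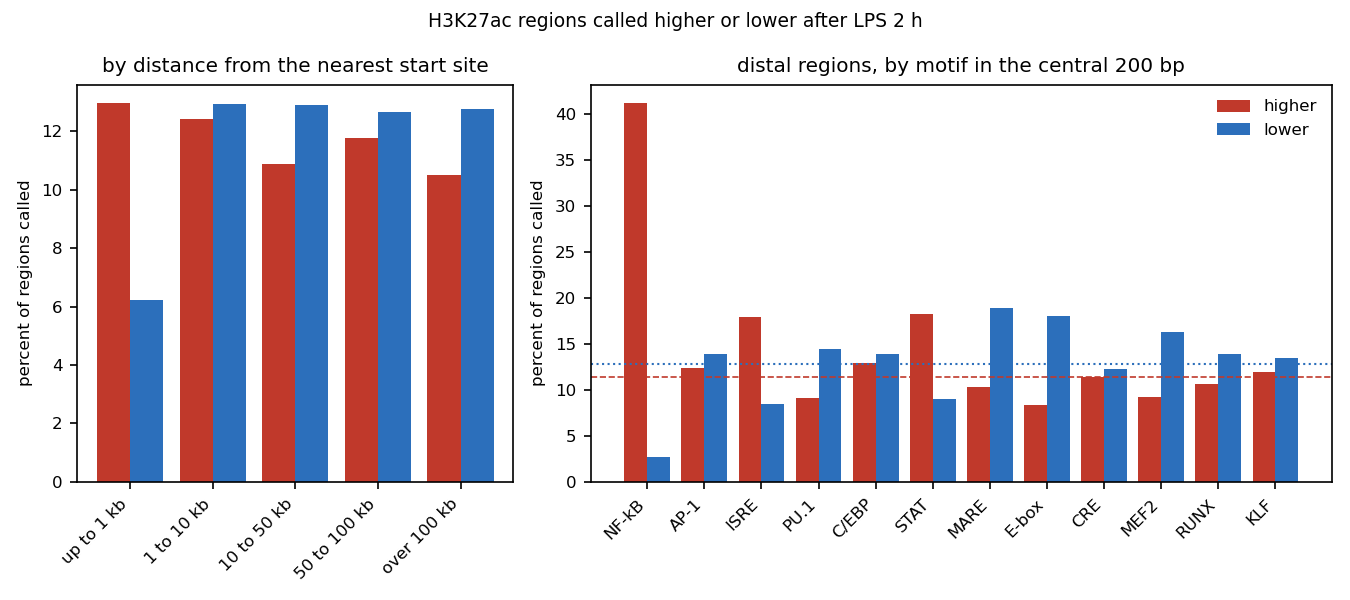
Percent of tested regions higher (red) or lower (blue) after LPS, by distance from the nearest start site (left) and, for distal regions, by motif in the central 200 bp (right, with the shares over all distal regions as a red dashed and a blue dotted line). Lower regions are 6.23% of those up to 1 kb from a start, and NF-kB stands out with 41.1% higher and 2.68% lower.

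Lower regions overlapped the deposited peaks of p300, LXR and SREBP more often than higher regions did. With an overlap of at least 1 bp of the central 200 bp, p300 peaks of the deposited list covered 52.3% of higher, 71.4% of lower and 49.9% of all distal regions, LXR peaks 29.3%, 52.3% and 29.1%, and SREBP peaks 30.9%, 48.7% and 30.7%. The LXR and SREBP lists come from cells given GW3965 at 1 µM. Lower regions also carried more H3K27ac in cells given the milk sugar 3'-sialyllactose (3'SL) without LPS. These 2 libraries are not among those compared here but were part of the same fit and scaling. In them distal lower regions had a median of 116.5 normalised tags, higher ones 22.98 and all tested ones 19.8. Overlap was not compared at matched levels, so the part of signal level in these shares was not tested. The p300 tags counted over the same regions moved with H3K27ac. Of p300 tags in tested regions, those called higher for H3K27ac held 10.7% in the p300 PBS library (1 library, replicate 2) and 27.9% and 27.6% in the 2 LPS libraries, and those called lower held 24.3% with PBS and 9.89% and 10.8% with LPS. In the p300 pair of replicate 2, the median log2 change was 1.47 over 6971 higher regions, -1.19 over 6294 lower ones and 0.02 over all 43332 with at least 10 tags in the pair. Since p300 tags of only 1 PBS library were used, no test was made, although the series also lists a p300 library titled PBS2 of replicate 1. The p300 libraries come from the same treatments but other immunoprecipitations.

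Among gene sums called with and without the block and with at least 100 tags in the higher group, the largest rises outside the classic lists were at genes for an epithelial anchoring protein, an interferon-inducible protein, a protease and a prostaglandin synthase. Lad1, which encodes ladinin of the basement membrane, had 0.919 and 1.02 normalised tags with PBS and 88.9 and 137 with LPS, from 2 PBS tags in all, so the ratio of scaled tags was 116 with an exact 95% interval of 31.8 to 960 from counting. Mmp14, a membrane-bound matrix metalloproteinase, had 139 and 19.4 with PBS and 1043 and 718 with LPS. Ptges, the inducible prostaglandin E synthase, had 24.8 and 8.18 with PBS and 227 and 257 with LPS. All LPS values lay above all PBS values here, although the PBS libraries of Mmp14 lay farther apart than those of Lad1 and Ptges. The log2 change was 5.82 ± 0.51 for Lad1, 4.02 ± 0.56 for Mmp14 and 3.98 ± 0.39 for Ptges (SE; adjusted p 1.75e-05, 0.000304 and 3.4e-05, limma). Has1, a hyaluronan synthase, rose from 81.8 and 54.2 to 795 and 1283 (log2 3.90 ± 0.28), Cp, the copper-carrying ferroxidase ceruloplasmin, from 13.8 and 7.16 to 129 and 140.5 (log2 3.62 ± 0.49), and Car4, a membrane carbonic anhydrase, from 16.5 and 32.7 to 357 and 245 (log2 3.61 ± 0.40). Mycl, a MYC family transcription factor, rose from 26.6 and 18.4 to 292 and 251 (log2 3.55 ± 0.27). Ifi205, an interferon-inducible gene not in the interferon list, had 12.9 and 4.09 with PBS and 445 and 76.7 with LPS, where LPS replicate 1 was by far the higher (log2 4.47 ± 0.54; adjusted p 0.00012, limma). The remaining 4 sums, named for Mir155hg, Mir101b, Olfr432 and Mir3966, had log2 changes of 3.63 to 3.95, where within 10 kb of its start Mir101b did not pass (log2 1.77, adjusted p 0.159, limma). Such names are those of the nearest start site, so a region near an olfactory receptor gene such as Olfr432 need not act on it.

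The largest falls by the same rule were at Slco2b1, Slc7a13, which encodes an amino acid transporter, and Zfyve28. Slco2b1 fell from 497 and 894 with PBS to 61.96 and 89.1 with LPS, and all 3 of its regions were lower. Slc7a13 fell from 1003 and 2601 to 135 and 253, and Zfyve28, which binds endosomal phosphoinositides, from 932 and 2430.0 to 165 and 261. In all 3 PBS replicate 2 lay well above PBS replicate 1, and both lay above the LPS libraries. The log2 changes were -3.15 ± 0.25, -3.12 ± 0.24 and -2.85 ± 0.23, with adjusted p of 8.1e-06, 7.54e-06 and 9.09e-06 (limma). Sgsh, the lysosomal sulfamidase of heparan sulfate breakdown, fell from 383 and 325 to 63.98 and 42.7 (log2 -2.73 ± 0.32), and Cerk, which phosphorylates ceramide, from 709 and 901 to 129 and 139 (log2 -2.57 ± 0.19). Acta1, whose product is the actin of skeletal muscle, fell from 1335 and 927 to 209 and 123 (log2 -2.78 ± 0.25). Rtp1, Alppl2, Gm19424, Mir3074-2, Shisa9 and Mir687 fell by 2.49 to 2.80 on the log2 scale. The 12 rises and 12 falls kept their calls without any one library.

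**Figure D3:**
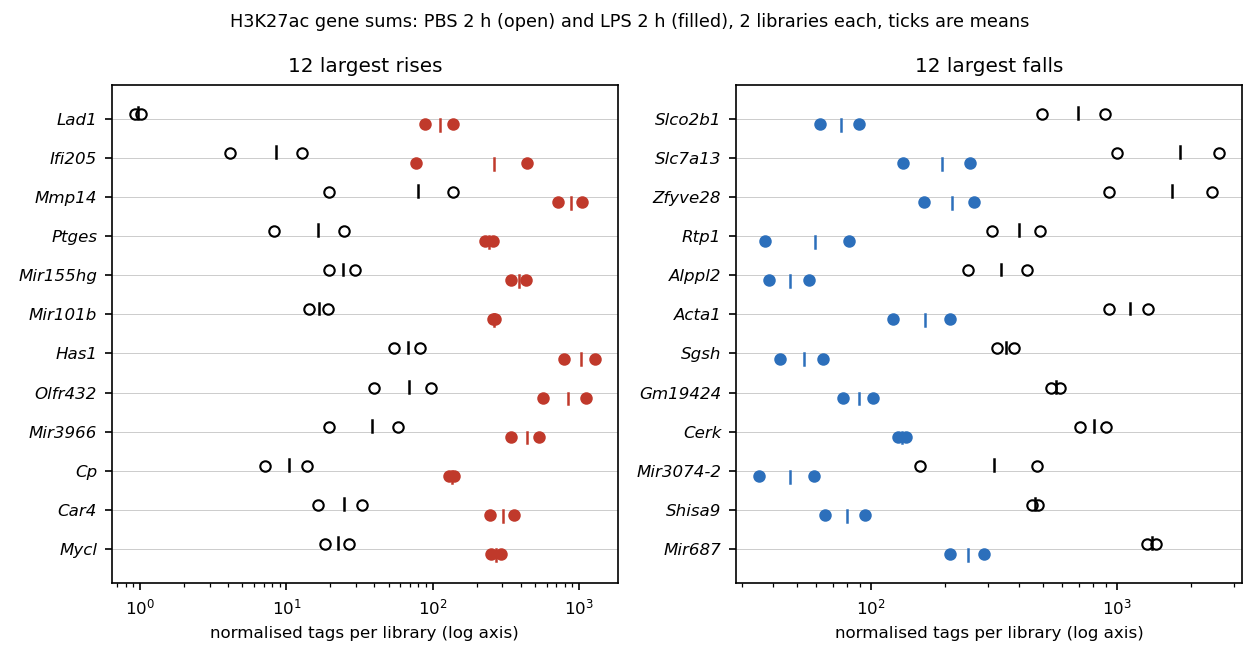
Normalised H3K27ac tags (log axis) of the 12 genes of largest rise (left) and 12 of largest fall (right), with 1 point per library, PBS open and LPS filled, and a tick at each group's mean. No gene's groups overlap, and Lad1 sits near 1 tag with PBS.

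The gene lists were drawn up around roles in macrophages, and counts are set against the 12.9% higher and 10.4% lower of all genes. As a yardstick, 42 of 55 classic cytokine and NF-kB genes and 32 of 41 interferon genes were higher, with median log2 changes of 1.60 and 1.97, and 28 and 11 passed also without the block. Members with values below were named by the rule given with the processing, and further genes were added after their values were seen. Some of these further genes, such as Mef2a, Mir99b and Mir21a, were not called without the block. Among the other 15 lists, survival genes, microRNA loci, solute carriers and kinases had the 4 largest shares higher, and lysosome and lipid genes the largest share lower.

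**Figure D4:**
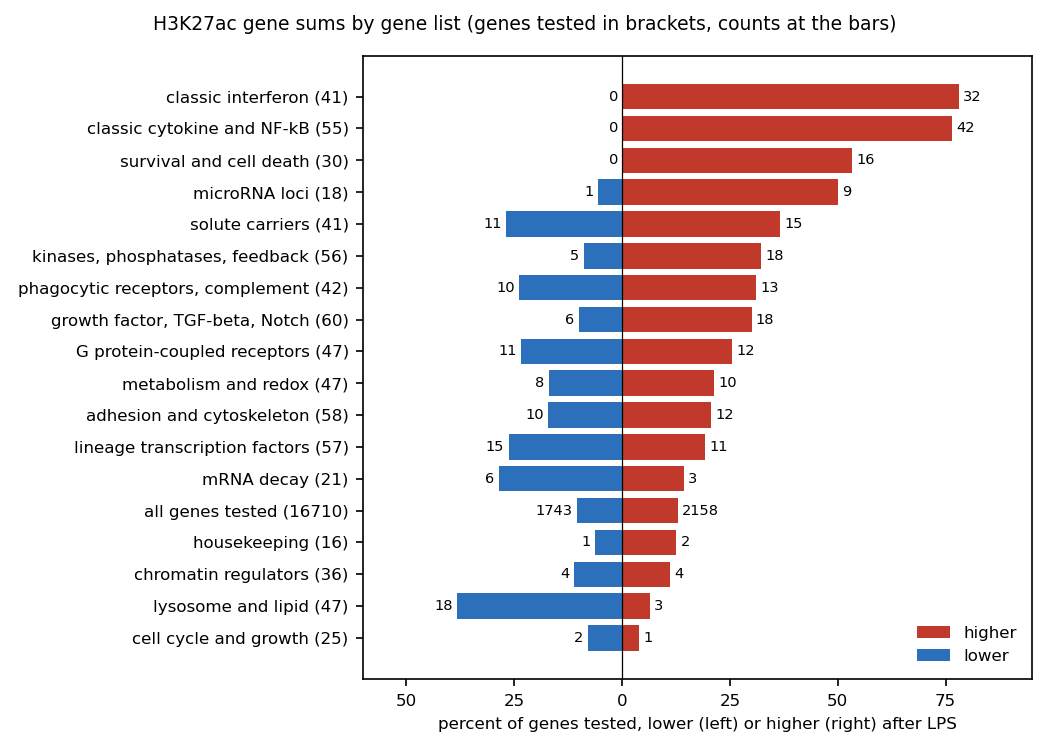
Percent of the tested genes of each list that were higher (red, right) or lower (blue, left) after LPS, with counts at the bars and the number tested in brackets. Lysosome and lipid genes have 18 of 47 lower and 3 higher, and survival genes 16 of 30 higher.

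Receptors on the cell surface moved in both directions. Of 47 G protein-coupled and purinergic receptors, 12 were higher and 11 lower (median log2 -0.17 against 0.09 over all genes), of which 7 and 2 passed also without the block. Fpr2, a receptor for formylated bacterial peptides, had 239.8 and 345 normalised tags with PBS and 2007 and 3049.7 with LPS, and its neighbour Fpr1 had 239 and 376 with PBS and 1477 and 3282 with LPS. Hcar2, the receptor for niacin and ketone bodies, had 68.9 and 65.4 with PBS and 469 and 565 with LPS. The groups are apart in all 3, with log2 changes of 3.10 ± 0.23, 2.87 ± 0.26 and 2.92 ± 0.20 (adjusted p 7.54e-06, 2.32e-05 and 6.87e-06, limma). The adenosine receptor genes Adora2a and Adora2b rose by 1.74 ± 0.29 and 1.43 ± 0.25. In the other direction, Gpr34, a lysophosphatidylserine receptor, fell by 1.84 ± 0.29 (adjusted p 0.000788; 0.171 without the block). Cnr2, the peripheral cannabinoid receptor, fell from 814 and 854 to 288 and 259, and Lpar6, a lysophosphatidic acid receptor, from 991 and 1668 to 466 and 382 (log2 -1.61 ± 0.20 and -1.60 ± 0.26). C3ar1, the receptor of the complement fragment C3a, had 2545 and 3760.0 with PBS and 3019.9 and 3142 with LPS, and its groups overlap (log2 -0.01 ± 0.18).

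Phagocytic receptors and complement genes also moved in both directions. Of 42 tested 13 were higher and 10 lower (median 0.17), of which 3 and 5 passed also without the block. Clec4e, the Mincle receptor for mycobacterial glycolipid, had 104 and 216 with PBS and 967 and 1322 with LPS, and Marco, a scavenger receptor for bacteria, had 126 and 60.3 with PBS and 302 and 455 with LPS. Gas6, the bridging ligand of the efferocytosis receptors Mertk and Axl, had 1043 and 936 with PBS and 214 and 165 with LPS. The log2 changes were 2.91 ± 0.40, 2.08 ± 0.39 and -2.39 ± 0.29 (adjusted p 0.00029, 0.00208 and 0.000127, limma), and in none do the groups overlap. Trem2, a receptor for lipids and apoptotic cells, fell from 1475 and 1867 to 671 and 474 (log2 -1.55 ± 0.23), Stab1 from 1015 and 1581 to 449.9 and 314 (log2 -1.75 ± 0.26) and Lrp1, an endocytic receptor of lipoproteins, from 7591 and 9017 to 4252 and 3261 (log2 -1.15 ± 0.18). The complement gene C3 rose by 2.37 ± 0.43 (adjusted p 0.00168; 0.21 without the block), and Trem3 by 2.10 ± 0.71 (adjusted p 0.0482; 0.173 without the block). The Trem3 call did not hold when LPS replicate 1 was left out (0.133), nor without PBS replicate 2 (0.474) or the second LPS library (0.176), nor with edgeR (0.0707) or DESeq2 (0.140). Sirpa, the receptor of the CD47 signal, had 4219 and 5441 with PBS and 4022 and 6731 with LPS and did not pass the test (adjusted p 0.696, limma).

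Genes of signal transducers and their brakes followed. Of 56 kinase, phosphatase and feedback genes 18 were higher and 5 lower (median 0.06), of which 8 and 3 passed also without the block. Rasgrp1, a diacylglycerol-activated exchange factor of Ras, had 275 and 437 with PBS and 2691 and 1693 with LPS, whereas its relative Rasgrp3 had 799 and 809.6 with PBS and 209 and 195 with LPS. Cish, a cytokine-induced inhibitor of STAT signalling, had 276 and 386 with PBS and 2019 and 1040.5 with LPS. The groups are apart in each, with log2 changes of 2.62 ± 0.34, -1.99 ± 0.25 and 2.15 ± 0.35 (adjusted p 0.000202, 0.000153 and 0.000944, limma). Within 10 kb of its start Rasgrp1 had a log2 change of 1.60 that did not pass the test (adjusted p 0.0693, limma). The MAP kinase phosphatase genes Dusp16 and Dusp2 rose by 2.14 ± 0.25 and 1.86 ± 0.28, and Pde4b, which breaks down cyclic AMP, by 1.76 ± 0.21. Both named regulators that speed the turn-off of G proteins fell, Rgs2 from 2371 and 4306 to 919 and 653 (log2 -2.04 ± 0.33) and Rgs10 from 2205 and 2845 to 868 and 917 (log2 -1.49 ± 0.16). Dusp1, a MAP kinase phosphatase, had 2544 and 3669 with PBS and 2264 and 4273 with LPS, with overlapping groups.

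Lineage transcription factor genes moved in both directions. Of 57 tested 11 were higher and 15 lower (median -0.08), of which 3 and 4 passed also without the block. Pparg, the lipid-sensing nuclear receptor, had 2730.2 and 3213 with PBS and 1201 and 1425 with LPS, and its partner Rxra had 669 and 763 with PBS and 285 and 263 with LPS. Tfeb, which drives lysosome genes, had 3982 and 3672 with PBS and 1461 and 2014 with LPS. All LPS values lay below all PBS values, with log2 changes of -1.18 ± 0.20, -1.38 ± 0.23 and -1.16 ± 0.23 (adjusted p 0.00126, 0.00107 and 0.0029, limma). Mef2a fell by 1.31 ± 0.20, and the call was lost without the block (adjusted p 0.155). Hes1, a target of Notch signalling, fell by 1.77 ± 0.42 (adjusted p 0.00909; 0.0498 without the block; 0.0635 without LPS replicate 1 and 0.0716 without PBS replicate 1). Ets2 rose from 350.1 and 202 to 752 and 1010.0 and Gfi1, a repressor of myeloid genes, from 130.5 and 72.6 to 386 and 268 (log2 1.71 ± 0.26 and 1.71 ± 0.19), where within 10 kb of its start Gfi1 did not pass (log2 1.40, adjusted p 0.0792, limma). Batf, an AP-1 family member, rose by 1.32 ± 0.18. Nfil3 rose by 1.54 ± 0.32 (adjusted p 0.00383; 0.0705 without the block; 0.0656 without LPS replicate 1 and 0.0570 without PBS replicate 2). Klf6 had 5203 and 6759 with PBS and 6529.5 and 6734 with LPS and did not pass the test.

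Genes for chromatin regulators were called at close to the rate of all genes, with 4 of 36 higher and 4 lower (median 0.15), of which 1 and 0 passed also without the block. Bcl6, a repressor of inflammatory enhancers, had 1181 and 816 with PBS and 3450.3 and 2476 with LPS, a log2 rise of 1.57 ± 0.17 (adjusted p 6.71e-05, limma) with both LPS libraries far above the PBS ones. The calls of the histone demethylase genes Kdm2b (log2 -1.50 ± 0.21) and Kdm5c (log2 1.04 ± 0.17) and of the DNA demethylation gene Tet2 (log2 1.05 ± 0.21) were lost without the block (adjusted p 0.187, 0.0983 and 0.348), and that of Kdm2b also within 1 kb of its start (0.275). Ep300, the gene of p300, had 1369 and 2417 with PBS and 1507 and 2287 with LPS, and the groups overlap.

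Of the 28 microRNA loci listed, 18 had enough tags to be tested, and 9 were higher and 1 lower, 6 and 1 also without the block. The host gene Mir155hg had 29.4 and 19.4 with PBS and 432 and 342 with LPS, and regions named for Mir155 itself 2.76 and 3.07 with PBS and 35.02 and 53.6 with LPS. Mir223, the locus of a microRNA that restrains Nlrp3 and granulocyte output, had 467 and 905 with PBS and 90.9 and 147 with LPS. Both directions were clear of overlap, with log2 changes of 3.95 ± 0.29, 3.50 ± 0.55 and -2.48 ± 0.27 (adjusted p 7.54e-06, 0.00067 and 5.69e-05, limma). The 2 loci with the GAGAACU seed both rose, Mir146 from 425 and 546 to 1468 and 1928 (log2 1.80 ± 0.15) and Mir146b from 133 and 100.2 to 319 and 274 (log2 1.35 ± 0.23). Of the pair with the GCUACAU seed, Mir222 rose from 1224 and 1277 to 3487 and 4771 (log2 1.71 ± 0.25), and regions named for the adjacent Mir221 had 280.3 and 247 with PBS and 276 and 515 with LPS and did not pass (adjusted p 0.226). Mir147 rose by 2.49 ± 0.35, Mir99b by 1.73 ± 0.23 (adjusted p 0.000206; 0.159 without the block) and Mir21a by 0.82 ± 0.15 (adjusted p 0.00207; 0.0541 without the block). Mir142, a locus of blood cells, had 2869.9 and 3895 with PBS and 3367 and 5286 with LPS and did not pass.

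Genes of mRNA decay were lower in 6 and higher in 3 of 21 (median 0.07), of which 1 and 2 passed also without the block. Zfp36l2, which encodes a protein that binds AU-rich elements and speeds decay, had 4964 and 7444 with PBS and 2019.8 and 1907 with LPS, and 17 of its 22 regions were lower. Zc3h12c, of the regnase family of RNases, had 473 and 495 with PBS and 1853 and 2686 with LPS, and Arid5a, which protects cytokine messengers from decay, had 372 and 357 with PBS and 1327 and 809 with LPS. The groups are apart in all 3, with log2 changes of -1.63 ± 0.19, 2.20 ± 0.20 and 1.50 ± 0.27 (adjusted p 9.26e-05, 2.42e-05 and 0.00164, limma). Samd4 fell by 1.49 ± 0.27 (adjusted p 0.00176; 0.423 without the block; 0.721 within 10 kb of its start). Zfp36 itself, the gene of tristetraprolin, had 2391 and 3653 with PBS and 3536 and 4307 with LPS, with overlapping groups (adjusted p 0.131, limma).

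Survival and cell death genes were higher in 16 of 30 (median 0.77), 7 of them also without the block, and the other 14 did not pass. Traf2, an adaptor of TNF receptors, had 111 and 121 with PBS and 676 and 614 with LPS. Casp4, the caspase that senses LPS in the cytosol, had 251 and 282 with PBS and 2601 and 1358 with LPS, and Casp1, the inflammasome caspase, 518 and 728 with PBS and 2412 and 1745 with LPS. LPS and PBS values do not overlap, and the log2 changes were 2.47 ± 0.19, 2.82 ± 0.29 and 1.74 ± 0.23 (adjusted p 7.54e-06, 4.41e-05 and 0.000241, limma). Bcl2a1a, one of several near-identical copies of the anti-apoptotic A1 gene, rose by 3.43 ± 0.20, and Bcl2a1b by 1.97 ± 0.21 (adjusted p 6.24e-05; 0.112 without the block). Tags cannot be assigned with certainty among these copies. Mcl1, another anti-apoptotic gene, had 4435 and 6025 with PBS and 7765 and 7298 with LPS, with an adjusted p of 0.0509 (limma).

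Of lysosome and lipid-handling genes, 18 of 47 were lower and 3 higher (median -0.43), of which 3 lower and 1 higher passed also without the block. Ctsd, the aspartic protease of the lysosome, had 6525 and 5984 with PBS and 2028 and 1679 with LPS, and 13 of its 14 regions were lower. Atp6v0d2, a subunit of the proton pump that acidifies lysosomes, had 3909 and 6547 with PBS and 1106 and 1105 with LPS. Npc1, which exports cholesterol from lysosomes, had 1229.5 and 1403 with PBS and 728 and 458 with LPS. The groups are apart in these 3, with log2 changes of -1.76 ± 0.18, -2.19 ± 0.20 and -1.18 ± 0.22 (adjusted p 3.45e-05, 2.42e-05 and 0.00194, limma). Gpnmb fell by 1.69 ± 0.25 and Tpp1, a lysosomal peptidase, by 1.32 ± 0.23, both lost without the block (adjusted p 0.595 and 0.189), and the PBS and LPS values of Gpnmb overlap. Acp2, the lysosomal acid phosphatase, went the other way, from 845 and 1057 to 1558 and 2216 (log2 0.97 ± 0.18). Ctsb had 5428 and 5309 with PBS and 5363 and 4194 with LPS and did not pass.

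Of 41 solute carrier genes, 15 were higher and 11 lower (median 0.32), Slco2b1 among the lower, and 6 and 5 passed also without the block. Slco3a1, a prostaglandin and anion transporter, had 121 and 175 with PBS and 1376 and 736 with LPS. Slc39a14, a zinc and iron importer, had 445 and 299.5 with PBS and 1559 and 2184 with LPS. Slc37a2, a sugar phosphate exchanger of macrophages, had 2556 and 2293 with PBS and 729 and 481 with LPS. The groups of all 3 are apart, with log2 changes of 2.78 ± 0.42, 2.33 ± 0.34 and -2.03 ± 0.17 (adjusted p 0.000568, 0.00044 and 9.43e-06, limma). Slc2a6, a sugar transporter of lysosomes, rose by 2.56 ± 0.59 (adjusted p 0.00773; 0.0941 without PBS replicate 1). The copper transporter gene Slc31a2 rose by 2.23 ± 0.17, and Slc9a9, an endosomal sodium-proton exchanger, fell from 899.6 and 1369.9 to 237 and 279 (log2 -2.10 ± 0.20). Slc3a2, the heavy chain of amino acid exchangers, had 1289 and 1733 with PBS and 1648 and 2111 with LPS.

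Metabolism and redox genes were higher in 10 and lower in 8 of 47 (median 0.31), with 9 and 3 also without the block. Ass1, which makes argininosuccinate and feeds arginine synthesis, had 46.9 and 38.8 with PBS and 348 and 302 with LPS. Sod2, the mitochondrial superoxide dismutase, had 254 and 169.7 with PBS and 1271 and 1514 with LPS, and Hpgd, which inactivates prostaglandins, 206 and 654 with PBS and 78.1 and 94.1 with LPS. Groups are apart in each, with log2 changes of 2.90 ± 0.25, 2.74 ± 0.24 and -2.09 ± 0.38 (adjusted p 1.44e-05, 1.92e-05 and 0.00162, limma). Ptges, the synthase named above, and Hpgd, the degrading enzyme, thus moved in opposite directions. Within 10 kb of its start Ass1 had a log2 change of 1.09 that did not pass (adjusted p 0.180, limma). Among enzymes of the citrate cycle and related steps, Sdhb, a succinate dehydrogenase subunit, fell from 691 and 771 to 286 and 374 (log2 -1.16 ± 0.19) and Idh1, the cytosolic isocitrate dehydrogenase, from 933 and 998 to 492 and 459 (log2 -1.02 ± 0.18). Gch1, the entry enzyme of tetrahydrobiopterin synthesis, rose by 1.75 ± 0.24 and Nampt, which recycles nicotinamide, by 1.33 ± 0.18. Fth1, the ferritin heavy chain gene, had 5267 and 4987 with PBS and 6763 and 7139.8 with LPS (adjusted p 0.0573, limma).

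Adhesion and cytoskeleton genes were higher in 12 and lower in 10 of 58 (median 0.11), of which 7 and 1 passed also without the block. Marcksl1, an actin-binding substrate of protein kinase C, had 20.2 and 28.6 with PBS and 191 and 249 with LPS. Cdc42ep2, an effector of Cdc42, had 200.3 and 179 with PBS and 1116 and 1088 with LPS, and Arhgap22, which turns Rac off, had 3841 and 4680.0 with PBS and 1235 and 1198 with LPS. In each the groups are apart, with log2 changes of 3.13 ± 0.25, 2.54 ± 0.17 and -1.80 ± 0.19 (adjusted p 9.09e-06, 6.87e-06 and 5.74e-05, limma). Itgb8, the integrin chain that activates latent TGF-beta, rose from 598 and 444 to 2963 and 2436 (log2 2.38 ± 0.21), with 15 of 22 regions higher, while the sum within 10 kb of its start had a log2 change of 0.93 that did not pass (adjusted p 0.225, limma). Tns3, a focal adhesion protein gene, had 7935 and 6848 with PBS and 8331 and 5462 with LPS, with overlapping groups.

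Growth factor, TGF-beta and Notch pathway genes were higher in 18 and lower in 6 of 60 (median 0.26), but 4 and 2 passed also without the block. Of these 4, Mmp14 is described above, and Notch1 rose from 434 and 366 to 1139.5 and 875 (log2 1.32 ± 0.18). Tgfb3, a TGF-beta ligand, fell from 326 and 494 to 153 and 145 (log2 -1.43 ± 0.23). The calls of Inhba (log2 1.92 ± 0.29), an activin subunit, of the TNF family ligand Tnfsf15 (log2 1.82 ± 0.27) and of the collagenase Mmp13 (log2 2.01 ± 0.27) were lost without the block (adjusted p 0.432, 0.419 and 0.0795), and in Inhba and Tnfsf15 PBS replicate 1 lay above LPS replicate 2. Il15 had 1169.8 and 2395 with PBS and 7803 and 2889.7 with LPS, where LPS replicate 1 was far above the rest (adjusted p 0.0576, limma).

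Of 25 cell cycle genes 1 was higher, Mycl, and 2 were lower. E2f2, an activator of S phase genes, fell from 169 and 308 to 61.3 and 70.2 (log2 -1.78 ± 0.24), and Ccnd1, a cyclin of the entry into the cycle, from 714 and 513 to 354 and 242 (log2 -1.05 ± 0.22; adjusted p 0.0781 without the block). Of 16 housekeeping genes 2 were higher and 1 lower: Actb rose by 0.54 ± 0.16, Pgk1 by 0.93 ± 0.24, and Gusb fell by 0.50 ± 0.17. These 3 calls were lost without the block (adjusted p 0.542, 0.273 and 0.306). Actb was also lost under the authors' scaling (0.116) and without any one of the 4 libraries (0.0527 to 0.165). Pgk1 was lost when either LPS library was left out (0.0818 for replicate 1, 0.0634 for replicate 2) and without PBS replicate 2 (0.183), and Gusb without LPS replicate 1 (0.243), PBS replicate 1 (0.188) or PBS replicate 2 (0.0952).

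At several loci most of the tested regions changed, here chosen after their regions had been counted. Only windows at open regions were measured, and windows that overlap share tags but count separately. Over 140 kb at chr16:84581132-84721441, all 28 regions named for 4930529L06Rik, Mir155hg and Mir155 were higher, 24 of them also without the block, with log2 changes from 1.82 to 5.43. Over 65.97 kb at chr17:17844907-17910877, 21 of 24 regions of Has1, Fpr1 and Fpr2 were higher. Over 104 kb at chr4:19848240-19952670, all 19 regions of Slc7a13 and Atp6v0d2 were lower, 10 of them also without the block, with log2 changes from -3.81 to -1.58. At Lrp1 18 of 19 regions were lower, at Pla2g4a, the cytosolic phospholipase that frees arachidonate, 22 of 23 were higher, and at Pde4b 28 of 43 were higher. At S1pr1, a sphingosine-phosphate receptor gene, 16 of 31 regions were lower (sum log2 -0.92 ± 0.17), and the sum was not called without the block (adjusted p 0.0555, limma). Of 16118 genes with a tested region, 3549 had a higher one, 3083 a lower one and 517 both, and at 30 both directions were called also without the block.

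Some genes held regions that changed in opposite directions. Fos, the AP-1 subunit gene, had 2602 and 3395 normalised tags with PBS and 2661 and 3286 with LPS over its 22 regions, a log2 change of -0.01 ± 0.21. Yet 9 of its regions were higher, at 24.1 to 59.5 kb past the start, and 5 were lower, from 18.8 kb before it to 0.67 kb past it. Of these, 3 higher and 3 lower ones were called also without the block. Some of these windows overlap and share tags, and at 24.1 and 0.67 kb past the start the PBS and LPS values overlap. The 2 windows over the start were not called. The region 5.08 kb before the start had 221 and 425 with PBS and 54.6 and 68.8 with LPS. The region 59.5 kb past it had 153 and 142 with PBS and 318 and 386 with LPS. Both had apart groups, with log2 changes of -2.31 ± 0.29 and 1.24 ± 0.22 (SE), and both were called also without the block. Cflar, which encodes the caspase-8 inhibitor FLIP, had 12 higher regions at chr1:58710964-58729113, its promoters among them, and 2 lower ones at chr1:58742089-58743981, from 408 and 539.8 with PBS to 126 and 125 with LPS in the second of these. For Cflar, 6 higher and 2 lower regions were called also without the block, and its promoters were not. Its sum rose by 0.97 ± 0.19 (adjusted p 0.00285; 0.0545 without the block, limma). Gas7, an actin-binding protein gene, had 7 higher and 5 lower of 34 regions, of which 2 and 5 were called also without the block. The sum of Gas7 was 4053 and 6503 with PBS and 4560.2 and 6721 with LPS. At Tnfrsf1b, a TNF receptor gene, 13 of 22 regions were higher and 5 lower, of which 3 and 1 were called also without the block. Its sum had 3939 and 4388 with PBS and 6732 and 6219.6 with LPS, a log2 change of 0.64 ± 0.17 (adjusted p 0.0142; 0.143 without the block; 0.129 without PBS replicate 1 and 0.0564 without LPS replicate 2, limma).

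**Figure D5:**
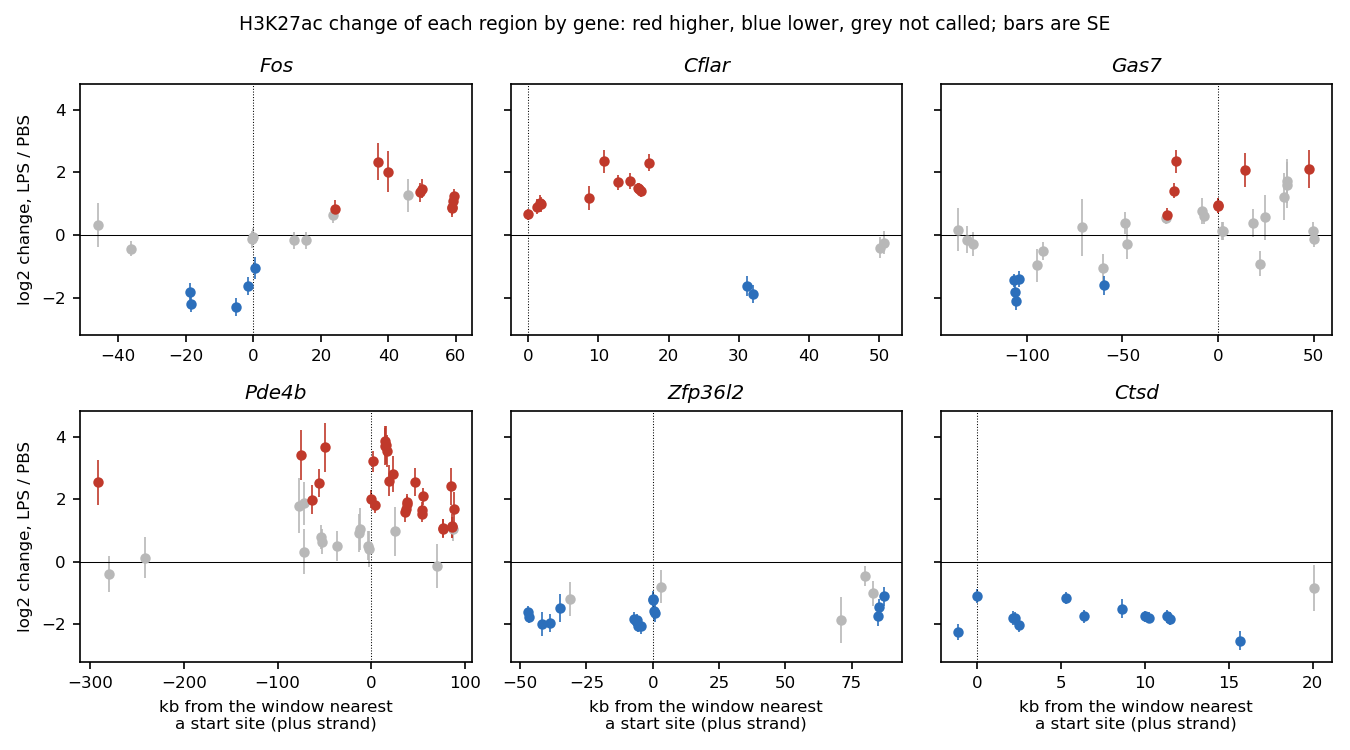
Log2 change (y axis, ± SE) of each tested region by its position in kb from the window nearest a start site (x axis, plus strand) at 6 genes. Fos, Cflar and Gas7 have higher (red) and lower (blue) regions at different positions, Pde4b has 28 higher of 43, and Zfp36l2 and Ctsd have 17 of 22 and 13 of 14 lower.

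The same agent at the same time was also given on top of 3'SL (100 µg/ml), with 3'SL alone as its control, in 4 other libraries that share none with the comparison above. The treatment labels of the replicate 1 libraries read 1 h and that of replicate 2 with both agents reads vehicle, and the titles were followed here too. There 6722 regions (8.69%) were higher and 5840 (7.55%) lower, and 1446 genes (8.65%) higher and 1165 (6.97%) lower (limma, adjusted p under 0.05). Both comparisons came from the same fit, with a shared replicate block and a shared variance for each region or gene. Their calls are therefore not independent of each other. Of the 9121 regions higher with LPS alone, 99.4% had the same sign and 63.6% were called higher, and of the 8692 lower ones 99.4% and 58.8%, against a same sign in 80.7% of all tested regions. For genes, the same sign held for 99.8% of the higher and 99.6% of the lower ones, and for 82.5% of all. Slco2b1 fell there by 2.76, Slc7a13 by 2.54, Ctsd by 1.14 and Zfp36l2 by 1.24 on the log2 scale, and Mir155hg rose by 3.67, Fpr2 by 2.75 and Ptges by 3.82. The response with 3'SL minus that without it passed for 0 regions and 0 genes by limma and by edgeR (959 regions and 117 genes at an unadjusted p under 0.05 by limma), which does not show that the 2 responses are equal.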

How the data were processed

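H3K27ac ChIP-seq was measured in mouse macrophages. Per the file headers the deposited signal values are tags per 10000000 mapped tags, counted by the authors with HOMER in 1000 bp windows (200 bp for p300). The submitters' processing notes name Bowtie2, HOMER, DESeq2 and mm10, with versions not given in the sources used here. All values gave whole tags within 0.05 tag once multiplied by each library's total, so tags were recovered. Columns that match no sample (10) were not used, and neither was the p65 peak list, since 329 of its peaks run past mm10 chromosome ends.

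Tags were rescaled with TMM factors from edgeR 4.0.16 ("normalised tags") and tested as log2(value + 1) with limma 3.58.1 in R 4.3.3 (trended, two-sided, Benjamini-Hochberg at 0.05 over all features kept by filterByExpr), over 15 libraries of 8 groups with replicate number as a block and 6 residual degrees of freedom. The pairing by replicate number was set in advance and not derived from the data. Differences of replicate 1 from replicate 2 were correlated between groups (21 correlations of 0.45 to 0.67). Same-numbered libraries thus deviated together, which does not show what they have in common. Replicates of LPS and of PBS differed beyond sampling noise (chi-square per degree of freedom of 20.5 and 14.5). Gene sums add regions by the name of the nearest start, so overlapping windows count a tag more than once. Transcripts were matched to genes with RefSeq GRCm38.p6. Intervals cover counting error only, at 95% confidence.

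Named genes outside the classic lists passed with and without the block, moved one way in both pairs and had at least 100 normalised tags in the higher group, and the 12 largest rises and 12 largest falls were taken. Of each list, up to 4 called and 2 uncalled members were named. The 8 named regions in each direction needed 50 tags. The members and lists were chosen with earlier results of these data known. Alternatives were no block, scaling, pseudocount 5, no filter, edgeR, DESeq2 1.42.0, the 4 libraries alone, each library left out, sums within 10 or 1 kb and the merged peak table. The script was tested on simulated data. Values of a few listed genes are not reported here.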

Additional observations from a re-analysis of the deposited data

How the results depend on the processing

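The replicate block set the number of calls. With no replicate block, which ignores the pairing, 2380 regions were higher and 1600 lower, and 582 genes higher and 380 lower. edgeR without the block, chosen after seeing the data, gave 2077 and 1422 regions and 559 and 375 genes. Leaving out 1 library, where the lone sample was assumed to vary like the other groups, gave 5346 to 6745 higher and 4097 to 6880 lower regions, and 1188 to 1650 higher and 885 to 1379 lower genes. With the 4 libraries alone 1159 genes were higher and 964 lower, and with sums within 1 kb 784 were lower. The causes were not tested beyond the fewer samples or regions these use. For LPS with 3'SL, no block gave 1274 higher and 632 lower regions, and 268 and 139 genes. With the block, edgeR called 8979 and 8830 regions and 2181 and 1755 genes, and DESeq2 9171 and 9441 regions and 1986 and 2275 genes. No region was called in the opposite direction under an alternative, and at most 5 genes were, in the sums near the start. All 16 named regions kept their calls under the alternatives run on regions, although passing without the block was a condition of their choice. Of the 77 genes named by the rules and called, 18 lost the call without the block. The 12 largest rises and 12 largest falls among these could not lose it, since passing without the block was a condition of their choice. Genes named besides the rules are not among the 77, and some of those also lost the call, such as Mef2a and Mir99b. The PBS library of no stated time in place of PBS replicate 1, also chosen after seeing the data, gave 10403 and 9449 regions. A library depth of 8673104 to 16842791 tags limits regions such as those with 0 tags with PBS.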
